A study of Oryctolagus cuniculus with 6 samples.

Results

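The conjunctiva, the mucous membrane of the eye, holds resident lymphocytes, and the genes described here are those by which T cells and cytotoxic lymphocytes are recognized. A list of 55 genes was used: the subunits of the T cell receptor complex, its coreceptors and signal proteins, costimulatory receptors, cytokine receptors, transcription factors and the genes of cytotoxic granules. A gene was taken as measured when a probe set of the array carried its symbol and no other. This held for 44 of the 55, each with 1 probe set among the 23364 of the array. CD3D and CD8A were listed only on probe sets that carry several symbols and are not named from them. For CD7, TNFRSF4, IL2RG, GZMA, GZMB, CTSW, KLRB1, KLRD1 and NCR1 no probe set was listed, so these 9 genes have no value here.

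The comparison was between DED and naive rabbits, all of them male adult Dutch Belted animals without nictitating membranes, which had been removed surgically. In the rabbits with dry eye disease (DED), concanavalin A (ConA), a plant lectin that activates T cells, was injected into the periorbital lacrimal glands on days 1, 8 and 14, and conjunctiva was taken on day 18. Naive rabbits received no injection, so the effect of ConA and that of the injection itself cannot be told apart. Each group has 3 arrays (Affymetrix Rabbit Gene 1.0 ST), and each array was hybridized with RNA pooled from several eyes: 3 animals and 6 eyes by the sample records, fewer by the published methods. The tissue was full-thickness conjunctiva with Tenon's capsule, so epithelium, stroma, vessels and leukocytes all contributed RNA. Because ConA was given to the gland and not to the conjunctiva, the values describe a tissue beside the injected one.

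A T cell recognizes a peptide through its receptor, whose signal enters the cell through the CD3 chains and CD247. The kinase LCK, bound to the coreceptor CD4 or CD8, phosphorylates these chains, ZAP70 docks on them, and the adaptors LAT and LCP2 carry the signal on. A second signal from CD28 or ICOS sustains the response, CTLA4 and PDCD1 restrain it, and cytotoxic cells kill with perforin and granzymes. Roles are given as they are known from human and mouse genes.

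T cell genes were higher in DED conjunctiva in part. Of the 44 measured genes, 8 rose: CD3G, CD4, LCP2, LCK, SLAMF6, ICOS, CD40LG and GZMK, by 1.26-fold (LCK) to 1.96-fold (SLAMF6). None fell at an adjusted p under 0.05 (limma, adjusted over all probe sets), and 36 did not pass. The 8 genes are 18.2% of those measured, whereas by the same rule 4.41% of all probe sets rose and 2.69% fell. At an unadjusted p under 0.05, 20 of the 44 were higher and 2, PDCD1 and NKG7, were lower, against 11.0% and 10.9% of all probe sets.

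The direction was shared more widely than the calls. The log2 fold change, DED minus naive, was positive for 35 of the 44 genes and negative for 9, with a median of 0.22 and a range of -0.16 to 0.97, whereas the median over all probe sets was -0.01. In 17 of the 44 (38.6%) all 3 DED arrays lay above all 3 naive arrays, which held for 13.4% of all probe sets. In 3 (6.82%), PDCD1, TNFRSF9 and NKG7, all DED arrays lay below, against 14.5% of all probe sets. The mean log2 value of the 44 genes was 5.86, 5.85 and 5.78 on the DED arrays and 5.58, 5.57 and 5.58 on the naive arrays. In tissue RNA a larger number of T cells and more RNA per cell cannot be told apart. A p-value here measures the spread between pools.

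**Figure D1:**
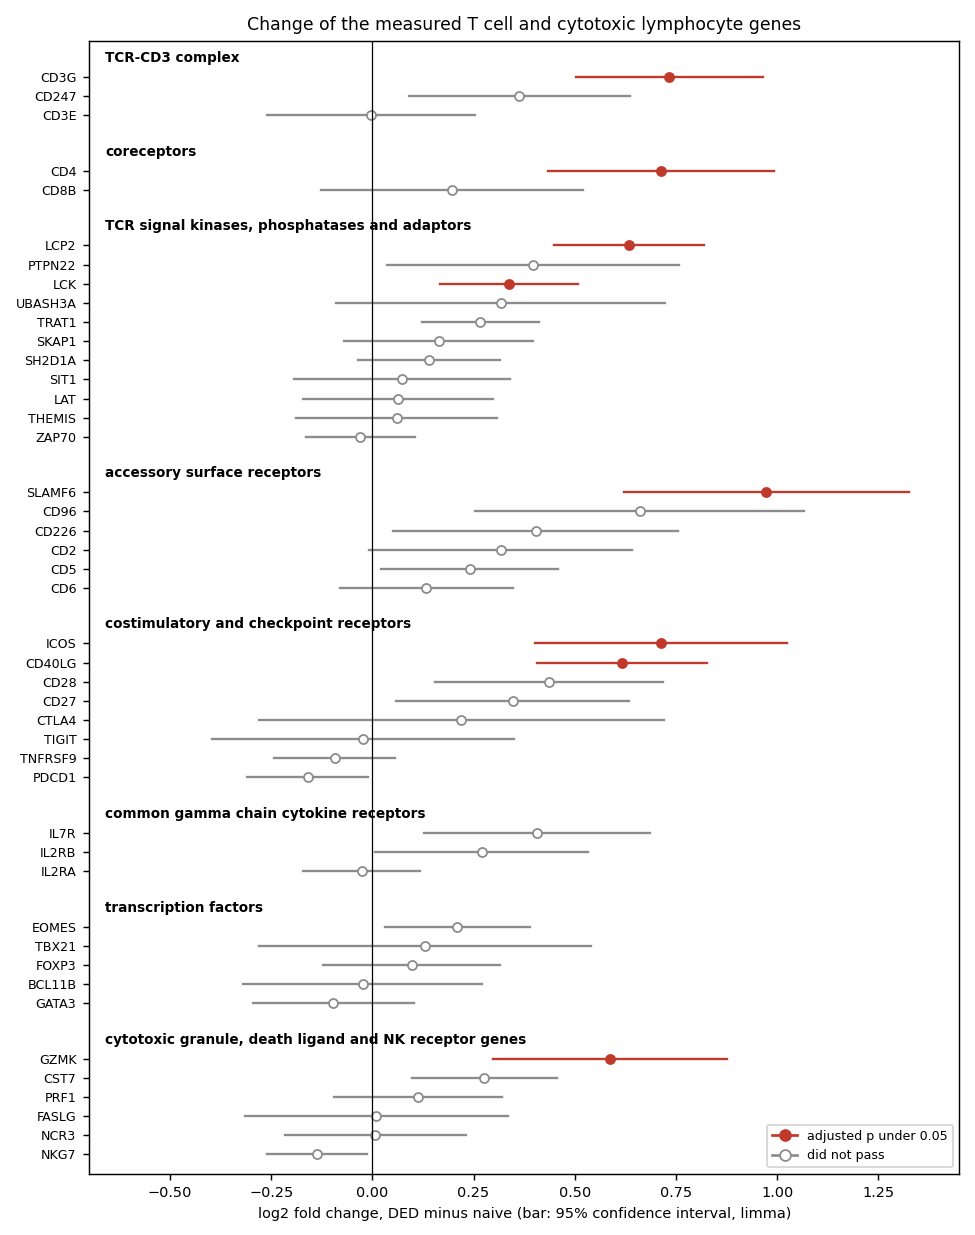
Log2 fold change (DED minus naive) of the 44 measured genes, grouped by role, with 95% confidence intervals from limma. Filled red points passed an adjusted p under 0.05. The 8 red points all lie right of 0, and within the receptor complex the points run from CD3E at -0.0033 to CD3G at 0.73.

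The 3 measured chains of the receptor complex did not move together. CD3G, a signal chain of the complex, gave log2 values of 6.33, 6.22 and 6.38 on the DED arrays and 5.68, 5.39 and 5.66 on the naive arrays. The groups did not overlap, and CD3G rose 1.66-fold (log2 0.73, standard error 0.10, limma adjusted p = 0.00740). CD247, the zeta chain that carries most of the signal motifs of the complex, gave 7.11, 6.92 and 7.21 in DED and 6.53, 6.75 and 6.87 in naive conjunctiva. Every DED value was again above every naive value, but the log2 fold change of 0.36 (95% confidence interval 0.09 to 0.64) had an adjusted p of 0.124 from limma. CD3E, a chain that pairs with CD3G in the complex, gave 6.27, 6.47 and 6.15 in DED and 6.36, 6.39 and 6.15 in naive tissue. Its groups overlapped almost completely, with a log2 fold change of -0.0033 and an interval of -0.26 to 0.25, so a CD3E change of the size measured for CD3G lies outside this interval.

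Because both values of a pair come from the same array, a shift of a whole array cancels in the difference between CD3G and CD3E. CD3G minus CD3E was 0.06, -0.25 and 0.23 in DED and -0.68, -1.0 and -0.49 in naive conjunctiva. The groups did not overlap, and the difference between them was 0.74. CD247 minus CD3E overlapped between the groups, with a mean higher by 0.37 in DED. Both pairs were chosen after the values had been seen, so no p is given for them.

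Among the coreceptors, CD4, which marks helper and regulatory T cells and is also carried by monocytes and macrophages in humans, rose and CD8B did not pass. CD4 gave 5.72, 5.68 and 5.89 in DED and 5.09, 5.23 and 4.83 in naive conjunctiva. The groups were apart, and the change was 1.64-fold (log2 0.71, standard error 0.12, limma adjusted p = 0.0163). CD4 no longer passed without naive array 1 (adjusted p = 0.0563), DED array 1 (0.0593) or DED array 3 (0.0588). CD8B, a chain of the coreceptor of cytotoxic T cells, gave 5.56, 5.83 and 5.35 in DED and 5.49, 5.43 and 5.23 in naive tissue. These overlapped, with a log2 fold change of 0.20 (interval -0.13 to 0.52, limma adjusted p = 0.456).

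Set against CD4 on the same array, CD8B stood lower in DED. CD8B minus CD4 was -0.16, 0.15 and -0.54 in DED and 0.40, 0.20 and 0.40 in naive conjunctiva. The groups did not overlap, the DED mean was lower by 0.52, and the spread was wider in DED (SD 0.346) than in naive tissue (SD 0.115). This pair too was chosen after its values had been seen and is given without a p.

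**Figure D2:**
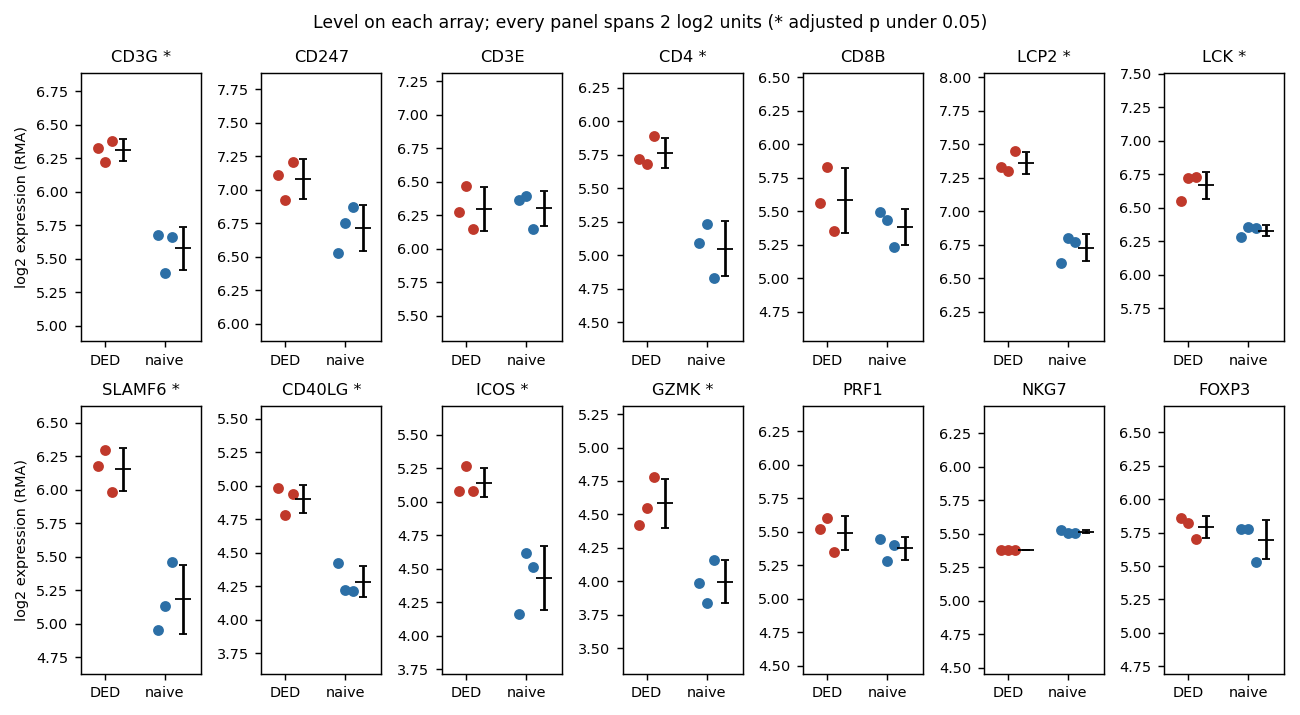
Log2 expression (RMA values) of 14 genes on each DED array (red) and each naive array (blue), with mean and SD, n = 3 arrays a group. Every panel spans 2 log2 units and an asterisk marks an adjusted p under 0.05. Groups are apart for CD3G, CD4, LCP2, LCK, SLAMF6, CD40LG, ICOS and GZMK, and overlap for CD3E, CD8B, PRF1 and FOXP3. They are also apart for CD247, higher in DED, and NKG7, lower in DED, neither of which passed.

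Of the 11 kinases, phosphatases and adaptors of the receptor signal, 2 rose. LCP2, the adaptor SLP-76 that joins LAT to downstream enzymes and is also used by myeloid cells, mast cells and platelets, gave 7.33, 7.30 and 7.45 in DED and 6.61, 6.80 and 6.77 in naive conjunctiva. The values were apart, and LCP2 rose 1.55-fold (log2 0.63, standard error 0.08, limma adjusted p = 0.00576). LCK, the kinase that starts the signal, gave 6.55, 6.72 and 6.73 in DED and 6.28, 6.36 and 6.35 in naive conjunctiva. The groups did not overlap, but the rise was the smallest of the 8, at 1.26-fold (log2 0.34, standard error 0.07, limma adjusted p = 0.0409). LCK did not pass without naive array 1 (adjusted p = 0.126), naive array 2 (0.103), naive array 3 (0.0996), DED array 2 (0.123) or DED array 3 (0.119).

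The other 9 did not pass. TRAT1, an adaptor that stabilizes the receptor complex at the surface, stood next to the threshold, with non-overlapping groups (4.31, 4.35 and 4.41 in DED, 4.04, 4.09 and 4.14 in naive), a log2 fold change of 0.27 and an adjusted p of 0.0501 from limma. PTPN22, a phosphatase that dampens the signal, had a log2 fold change of 0.40 (limma adjusted p = 0.189), and UBASH3A, another inhibitor of receptor signalling, 0.32 (0.338). SKAP1, an adaptor that couples the receptor to integrins, and SH2D1A, the adaptor SAP of the SLAM receptors, had changes of 0.16 and 0.14. The inhibitory adaptor SIT1 (0.07), the adaptor LAT (0.06) and THEMIS, which acts in thymocyte selection (0.06), lay close to 0. ZAP70, the kinase directly downstream of LCK, had a log2 fold change of -0.03, with an interval of -0.16 to 0.10. ZAP70 was among the 30% dimmest probe sets, those with the lowest mean level, so this does not show that the gene was unchanged.

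SLAMF6, a self-binding receptor of T, B and NK cells that signals through SH2D1A, had the largest change of all 44 genes. It gave 6.18, 6.30 and 5.98 in DED and 4.95, 5.13 and 5.46 in naive conjunctiva. The groups were apart by more than 0.5 log2 units, and SLAMF6 rose 1.96-fold (log2 0.97, standard error 0.15, limma adjusted p = 0.0123). Without naive array 2 its adjusted p was 0.0535 and without DED array 1 it was 0.0559, at log2 fold changes of 0.95 and 0.96. The other 5 measured accessory receptors had positive changes that did not pass. CD96, a receptor for nectin-like ligands on T and NK cells, was 6.13, 6.02 and 5.79 in DED and 5.60, 4.98 and 5.38 in naive tissue, without overlap (log2 0.66, standard error 0.17, limma adjusted p = 0.0746). CD226, its activating counterpart, had a change of 0.40, the adhesion receptor CD2 of 0.32, CD5, which tunes receptor signalling, of 0.24, and its relative CD6 of 0.13.

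Among the costimulatory and checkpoint receptors, ICOS and CD40LG rose. ICOS, which appears on activated T cells and supports help to B cells, gave 5.08, 5.27 and 5.08 in DED and 4.16, 4.62 and 4.51 in naive conjunctiva. The groups were apart, with a 1.64-fold rise (log2 0.71, standard error 0.13, limma adjusted p = 0.0241). ICOS did not pass without naive array 3 (adjusted p = 0.0637), DED array 1 (0.0727), DED array 2 (0.0853) or DED array 3 (0.0680). CD40LG, the ligand by which activated helper T cells engage CD40 on B cells and macrophages, gave 4.98, 4.78 and 4.94 in DED and 4.42, 4.22 and 4.21 in naive tissue. It rose 1.53-fold without overlap (log2 0.62, standard error 0.09, limma adjusted p = 0.00992).

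CD28, the main costimulatory receptor, gave 4.92, 5.01 and 4.88 in DED and 4.73, 4.28 and 4.49 in naive conjunctiva. The groups did not overlap, but the log2 fold change of 0.44 had an adjusted p of 0.0843 from limma, which was 0.0390 without naive array 1. CD27, a costimulatory receptor of the tumour necrosis factor receptor family, had a change of 0.35 (limma adjusted p = 0.155) and also did not overlap. CTLA4, which competes with CD28 for its ligands, overlapped, with 3.80, 3.85 and 3.46 in DED and 3.27, 3.24 and 3.94 in naive tissue. Its log2 fold change of 0.22 had an interval of -0.28 to 0.72, so the arrays leave its direction undetermined. TIGIT, an inhibitory receptor that shares ligands with CD226, had a change of -0.02 and was also among the 30% dimmest probe sets.

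PDCD1, the checkpoint receptor PD-1, gave lower values in DED. They were 6.44, 6.45 and 6.41 in DED and 6.57, 6.68 and 6.53 in naive conjunctiva, without overlap. The log2 fold change of -0.16 (standard error 0.06) did not pass, with a limma adjusted p of 0.201. TNFRSF9, the costimulatory receptor 4-1BB, also lay lower on every DED array, at a log2 fold change of -0.09 (limma adjusted p = 0.445).

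None of the 3 measured cytokine receptor genes passed. IL7R, the receptor for the survival factor interleukin-7, gave 6.35, 6.21 and 6.11 in DED and 5.90, 5.59 and 5.96 in naive conjunctiva, without overlap (log2 0.41, limma adjusted p = 0.0985). IL2RB, the beta chain shared by the receptors for interleukin-2 and interleukin-15, had a change of 0.27 (limma adjusted p = 0.218). IL2RA, the alpha chain CD25 of activated and regulatory T cells, had a change of -0.03, with values of 6.31, 6.26 and 6.30 in DED and 6.35, 6.24 and 6.36 in naive tissue.

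The 5 lineage transcription factors did not pass either, and their log2 fold changes lay between -0.10 and 0.21. FOXP3, which defines regulatory T cells, gave 5.86, 5.82 and 5.70 in DED and 5.78, 5.78 and 5.53 in naive conjunctiva, and these overlapped (log2 0.10, interval -0.12 to 0.31, limma adjusted p = 0.599). EOMES, of memory and cytotoxic cells, was the only one of the 5 whose groups were apart, at a change of 0.21 (limma adjusted p = 0.166). TBX21, the T-bet factor of type 1 helper and NK cells, had a change of 0.13, BCL11B, needed for T cell identity, of -0.02, and GATA3, of type 2 helper cells and also of many epithelia, of -0.10.

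Cytotoxic genes were measured least completely, with 6 of 12, and 1 of them rose. GZMK, a granzyme of effector memory T cells, gave 4.42, 4.55 and 4.78 in DED and 3.99, 3.84 and 4.16 in naive conjunctiva. The groups did not overlap, and the rise was 1.50-fold (log2 0.59, standard error 0.12, limma adjusted p = 0.0377). It passed with all 6 arrays but not with any 5: its adjusted p was 0.113 without naive array 1, 0.108 without naive array 2 and 0.0513 without naive array 3. It was 0.0566 without DED array 1, 0.101 without DED array 2 and 0.0874 without DED array 3.

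PRF1, the pore-forming perforin, overlapped, with 5.52, 5.60 and 5.35 in DED and 5.45, 5.28 and 5.40 in naive tissue (log2 0.11, interval -0.09 to 0.32, limma adjusted p = 0.506). NKG7, a granule membrane protein of cytotoxic cells, gave 5.38 on each of the 3 DED arrays and 5.53, 5.51 and 5.51 on the naive arrays. All DED values were lower, by 0.14 on the log2 scale (limma adjusted p = 0.185). CST7, an inhibitor of granule proteases that is also made by myeloid cells, had a change of 0.28 with groups apart (limma adjusted p = 0.0849). The death ligand FASLG and the activating NK receptor NCR3 each had a change of 0.01. GZMK minus PRF1 on the same array was -1.10, -1.05 and -0.57 in DED and -1.46, -1.44 and -1.24 in naive conjunctiva, without overlap, a pair chosen after the values had been seen and given without a p.

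By the one-way analysis of variance that the study's methods name, with adjustment over all probe sets, 4 of the 44 genes were higher in DED (CD3G, LCP2, TRAT1 and CD40LG), against 3.56% of all probe sets. By that test NKG7, whose 3 DED values are equal to 2 decimals, was lower (adjusted p = 0.00570), as were 2.44% of all probe sets.

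Whether other genes changed in proportion to CD3E or CD28 was asked on the same array, where 3 arrays against 3 allow no exact p below 0.1. PRF1 minus CD3E was -0.75, -0.87 and -0.80 in DED and -0.91, -1.11 and -0.75 in naive conjunctiva, higher by 0.12 in DED with overlap (two-sided exact permutation test, p = 0.5). FOXP3 minus CD3E was higher by 0.10 (exact p = 0.4), and CTLA4 minus CD28 was lower by 0.22 (exact p = 0.5). ICOS minus CD28, chosen after its values had been seen and given without a p, was higher by 0.28 in DED and overlapped. The T cell chains were also set against the common leukocyte antigen. The mean of CD3E, CD3G and CD247 minus PTPRC, the gene of CD45, was -1.07, -1.11 and -1.16 in DED and -0.42, -0.34 and -0.33 in naive tissue. It was lower by 0.75 in DED, without overlap, at the smallest exact p the design allows (0.1).

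**Figure D3:**
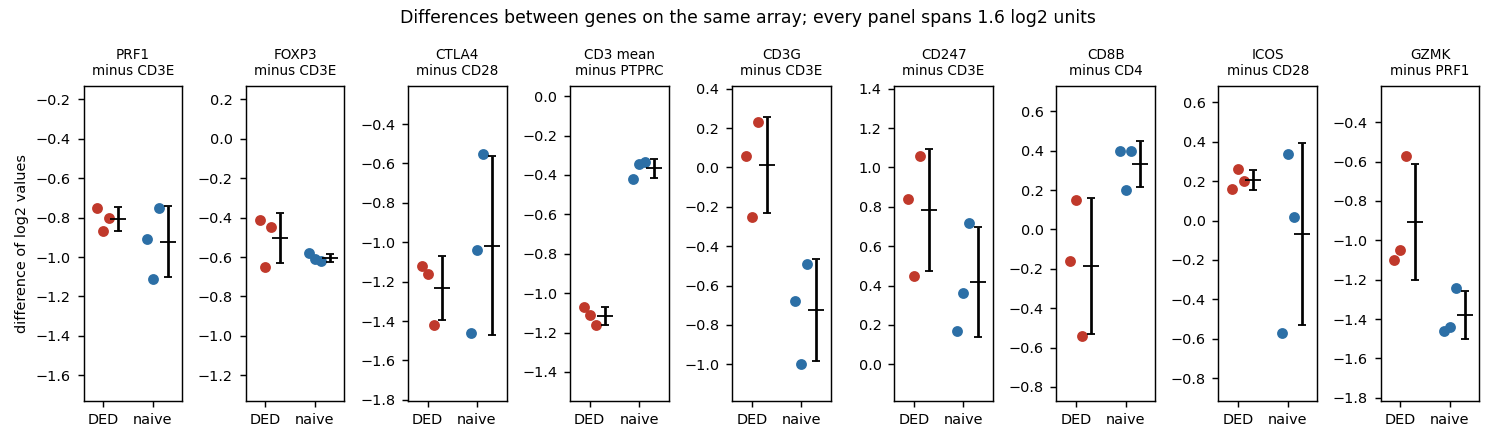
Difference of 2 log2 values on the same array for 9 gene pairs, on each DED array (red) and each naive array (blue), with mean and SD, n = 3 arrays a group. Every panel spans 1.6 log2 units. The groups are apart for the CD3 mean minus PTPRC, CD3G minus CD3E, CD8B minus CD4 and GZMK minus PRF1, and overlap in the other 5 panels. CD3G minus CD3E, CD247 minus CD3E, CD8B minus CD4, ICOS minus CD28 and GZMK minus PRF1 were chosen after their values had been seen.

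Other genes of T cell receptor signalling were taken from a list of 32, of which 25 were measured. Of these 3 rose and none fell, against 4.41% and 2.69% of all probe sets, with a median log2 fold change of 0.10. PTPRC, the phosphatase CD45 of all leukocytes, which activates LCK, gave 7.64, 7.65 and 7.74 in DED and 6.61, 6.52 and 6.56 in naive conjunctiva (log2 1.11, limma adjusted p = 3.36e-04). The change of PTPRC exceeded that of any of the 44 genes. FYB1, an adaptor that binds LCP2 and serves T and myeloid cells, rose by log2 0.85 (limma adjusted p = 0.00430). CORO1A, an actin regulator of all leukocytes, rose by log2 0.52 (limma adjusted p = 0.0231). CORO1A did not pass without naive array 1 (adjusted p = 0.0714), naive array 2 (0.0760), naive array 3 (0.0528), DED array 1 (0.0763) or DED array 3 (0.0613).

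Of 12 measured genes of homing and tissue residency (17 listed), 6 rose and none fell, against 4.41% and 2.69% of all probe sets. ITGA4, the alpha 4 integrin chain that binds activated endothelium, rose by log2 0.86 (limma adjusted p = 0.00584) and CD44, a hyaluronan receptor of leukocytes and many other cells, by 0.66 (0.00159). CXCR6, a chemokine receptor of effector and resident T cells, rose by log2 0.66 (limma adjusted p = 0.00812), with 6.77, 6.81 and 6.70 in DED and 5.93, 6.15 and 6.22 in naive conjunctiva. CXCR5, the receptor of B cells and follicular helper T cells, rose by log2 0.59 (limma adjusted p = 0.0436). The integrin chains ITGAL and ITGA1 rose as well. The count of 6 was 3 without naive array 2, DED array 1 or DED array 2, against 2.57%, 2.39% and 2.65% of all probe sets. CXCR5 did not pass without naive array 1 (adjusted p = 0.112), naive array 2 (0.112), naive array 3 (0.125), DED array 1 (0.0750) or DED array 2 (0.0721).

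The lists of other transcription factors, cytotoxic genes, inhibitory genes and cytokines held 1 lower and 1 higher call, against 2.69% and 4.41% of all probe sets. Of 14 other lymphoid transcription factors measured, none rose and ID3 fell. ID3, an inhibitor of E proteins that is also expressed in epithelium and endothelium, gave 7.81, 7.80 and 7.73 in DED and 8.25, 8.38 and 8.27 in naive tissue (log2 -0.52, limma adjusted p = 0.00557). Of 15 other cytotoxic and NK cell genes 1 rose, TYROBP, the adaptor DAP12 that NK cells share with macrophages and neutrophils (log2 0.46, limma adjusted p = 0.00758). None of 7 regulatory and exhaustion genes passed, the largest change being that of the ectonucleotidase ENTPD1 (log2 0.25, limma adjusted p = 0.111). None of 13 T cell cytokine genes passed, with a median of -0.01, and the largest change was that of IL2, at -0.20 (limma adjusted p = 0.252). IFNG, IL2, IL4, IL5, IL17A, IL21, IL22 and CSF2 were among the 30% dimmest probe sets. IL2 gave 2.29, 2.13 and 2.31 in DED and 2.37, 2.58 and 2.37 in naive tissue, where the lowest value of the array was 1.18. At such levels these values do not show that the cytokine genes were unchanged.

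Markers of other leukocytes moved with the same arrays, and their part in the T cell values was not tested. Their counts stand beside 4.41% of all probe sets that rose and 2.69% that fell. Of 10 measured macrophage and monocyte markers 7 rose, with a median log2 fold change of 0.73, and the summed log2 level was 78.2 to 78.7 on DED arrays and 71.8 to 72.4 on naive arrays. CD14, the lipopolysaccharide coreceptor of monocytes, rose by log2 1.13 (limma adjusted p = 2.84e-04). Of 8 neutrophil markers 5 rose (median 0.82, summed level 53.0 to 54.0 in DED and 46.5 to 48.1 in naive), with S100A8, a calcium-binding protein of neutrophils, at log2 1.89 (limma adjusted p = 1.98e-04). Of 10 B and plasma cell markers 6 rose (median 0.41, summed level 73.9 to 74.2 in DED and 69.3 to 69.7 in naive), with MS4A1, the gene of CD20, at log2 1.00 (limma adjusted p = 0.00253). In this list 8 of the 10 changes were positive. JCHAIN, of the same list, lay lower on every DED array and did not pass (log2 -0.22, limma adjusted p = 0.0673). The medians of these lists were above the 0.22 of the T cell and cytotoxic genes, a list that mixes several roles. A list of T cell markers alone, with 5 measured (CD3E, CD3G, CD247, CD2 and CD5), had a median of 0.32. That median lay between 0.22 and the 0.41 of the B and plasma cell markers. Of these 5 T cell markers 1 rose, CD3G, and the summed level was 32.6 to 32.9 in DED and 31.0 to 31.3 in naive.

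Other cell types changed less uniformly, and their counts stand beside the same 4.41% of all probe sets that rose and 2.69% that fell. None of 7 dendritic cell markers passed (median 0.01, summed level 41.2 to 42.4 in DED and 41.6 to 41.8 in naive), and neither did the 2 measured NK cell markers. Of 5 erythrocyte markers 2 rose, HBB2, a globin chain, and ALAS2, an enzyme of haem synthesis in red cells, by log2 3.08 and 2.68 (limma adjusted p = 1.20e-05 and 1.56e-05). SLC4A1, EPB42 and AHSP overlapped between the groups and did not pass (log2 0.23, 0.09 and -0.10). The median of the 5 was 0.23. The summed erythrocyte level was 33.6 to 34.0 on DED arrays and 27.4 to 28.4 on naive arrays. The share of blood in the pieces was not tested. Of 4 lacrimal gland markers 1 rose and 3 fell (median -1.36). LYZ rose (log2 0.27, limma adjusted p = 0.0390) and is also counted among the macrophage and monocyte markers that rose. LYZ has 2 probe sets, of which that with the higher mean over the 6 arrays was used. PIP, LTF and LCN2 fell (log2 -4.63, -1.54 and -1.18, limma adjusted p = 1.20e-05, 6.52e-04 and 0.00646). Of 6 markers of vascular endothelium 2 rose, VWF and PECAM1 (log2 0.87 and 0.78, limma adjusted p = 5.96e-04 and 0.00386). The median of the 6 was 0.09. TEK was at log2 0.29, and KDR, TIE1 and CLDN5 were at -0.11, -0.20 and -0.13, none of which passed. The shares of gland and vessel were not tested. The labelled tissue was checked by KRT4, a keratin of conjunctival epithelium, which gave high values on every array (log2 11.38, 11.31 and 11.22 in DED and 10.84, 10.85 and 10.94 in naive). KRT4 itself rose, by log2 0.43 (limma adjusted p = 0.0145), as did KRT5, a keratin of basal epithelial cells (0.59, 0.00496), and the membrane mucin MUC4 (0.48, 0.00409), 3 of 7 measured epithelial markers. PAX6 and EPCAM, of the same 7, lay lower on every DED array and did not pass (log2 -0.15 and -0.20, limma adjusted p = 0.188 and 0.0971). The summed log2 level of the 7 was 73.4 to 73.6 on DED arrays and 72.0 to 72.3 on naive arrays. The share of epithelium in the pieces was not tested. KRT4 did not pass without naive array 1 (adjusted p = 0.0591), naive array 2 (0.0620), DED array 1 (0.0581) or DED array 2 (0.0576). No marker was at 0 on the log2 scale, and the table has no detection calls.

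**Figure D4:**
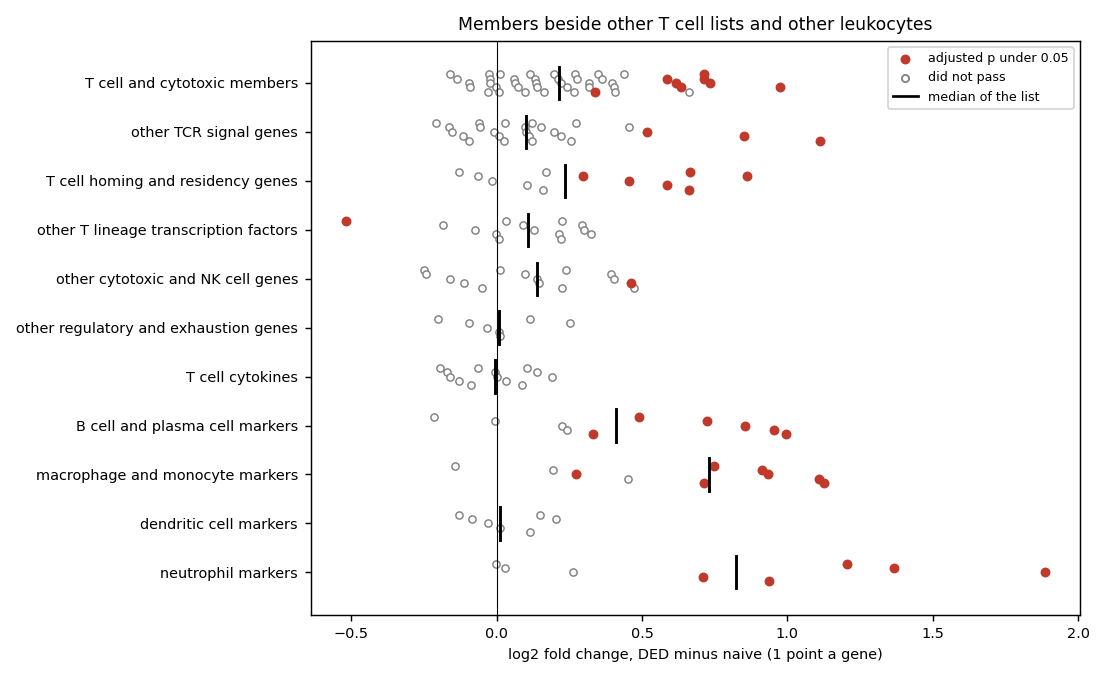
Log2 fold change (DED minus naive), 1 point a gene, for the 44 T cell and cytotoxic genes, 6 lists of other T cell genes and 4 lists of other leukocytes, with the median of each list as a black bar. Filled red points passed an adjusted p under 0.05. Medians of B cell, macrophage and neutrophil markers lie right of that of the T cell and cytotoxic genes. Cytokine genes lie around 0, several of them among the 30% dimmest probe sets.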

How the data were processed

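The authors made the deposited values, on a log2 scale, from the scanned arrays by Robust Multi-chip Analysis (RMA) with the Transcriptome Analysis Console. Its version was not given in the sources used. RMA corrects background, normalizes arrays by quantiles and summarizes probes, so a shift of all transcripts together cannot be seen. Array medians were 6.18 to 6.2. Signal over background is not given, and the 3 arrays a group limit the precision.

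The contrast DED minus naive was estimated in limma 3.58.1 (lmFit, then eBayes, in R 4.3.3), with 2.55 prior degrees of freedom and Benjamini-Hochberg adjustment over 23364 probe sets (threshold 0.05). The platform annotation gave 1 symbol for 15795 probe sets, several for 397 and none for 7172. Of the 44 genes, 43 were found by Entrez identifier in RefSeq (assembly mOryCun1.1), with the same symbol; NKG7 was not found. The statistics were tested on simulated data. Python 3.11.15, numpy 2.4.6, pandas 2.3.3, scipy 1.17.1 and matplotlib 3.10.9 served the rest.

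The genes and lists were chosen with earlier results of these data known. Values on every array are given for genes past the threshold and for lineage-defining genes, with some others chosen after their values were seen (TRAT1, CD96, CD28, CTLA4, PDCD1, IL7R and IL2RA); in other T cell lists up to 4 genes past the threshold with the largest changes are named, or the largest change where none passed. From the lists of other cells, 1 to 3 genes within the same rule are named, with KRT4 as tissue check. ITGAL, ITGA1, JCHAIN, PAX6, EPCAM, LYZ, SLC4A1, EPB42, AHSP, TEK, KDR, TIE1 and CLDN5 were named after their values were seen. Alternatives changed the fit (intensity trend, robust fit, array weights, replicate number as block, or one-way analysis of variance as in the methods), the scaling (median centring or a further quantile normalization), the probe sets (without the 30% dimmest, with single symbols only, or averaged by symbol) or the arrays (each left out in turn). Planned pairs with CD8A or GZMA, which have no single-symbol probe set, were not run. The planned CD3 mean set against PTPRC was to include CD3D, which was left out for the same reason. RT-PCR values were not analysed here.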

Additional observations from a re-analysis of the deposited data

How the results depend on the processing

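The 44 genes gave 8 calls higher in DED. CD3G and LCP2 kept theirs in all 16 alternatives run, and CD40LG in all 15 that held it. The count was 11 with an intensity trend (7.26% of all probe sets), 4 by one-way analysis of variance, 5 with the replicate number as a block (2.1%), and 4 to 6 with any 1 array left out (2.39% to 2.93%). The count of lower calls was 1 by analysis of variance and 0 in every other alternative. Samples of the 2 groups that share a number did not deviate together (r = -0.02, 0.02 and -0.06 across probe sets). Those with unlike numbers gave -0.05 to 0.06. No pairing by number was seen, but 3 arrays a group cannot exclude a shared batch. With the replicate block, CD3G, LCP2, ICOS, CD40LG and GZMK passed. Among the 30% dimmest probe sets (mean log2 under 5.055) lie 10 of the 44 genes. They are ICOS, CD40LG, GZMK, ZAP70, TRAT1, CD226, CD28, CTLA4, TIGIT and EOMES. Without the 30% dimmest probe sets 8 of 34 passed, against 8.51% of the probe sets kept, 5 of them in common with the 8. TRAT1 passed after quantile normalization once more (0.0382), and CD96 and IL7R with an intensity trend (0.0157 and 0.0410).

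Genes close to 0 changed sign, none of them called. CD3E was 0.0014 after quantile normalization once more and -0.09 to 0.07 with any 1 array left out, and NCR3 was -0.0003 with array weights and -0.06 to 0.075 with 1 array left out. With 1 array left out, LAT was -0.0117 to 0.12, SIT1 -0.0117 to 0.153, THEMIS -0.0483 to 0.132, TIGIT -0.142 to 0.138, BCL11B -0.16 to 0.06, TBX21 -0.0233 to 0.292 and FASLG -0.13 to 0.14. CTLA4 minus CD28 was -0.438 to 0.0167. Among the other lists, alternatives added after seeing the data gave 2 to 4 genes of receptor signalling higher and 3 to 6 genes of homing, and neutrophil markers 3 to 6. Across the alternatives 2.1% to 8.51% of the probe sets tested were higher. The cause of these shifts was not tested.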

Other observations

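Several of the genes lie next to each other in the rabbit RefSeq annotation, with no protein-coding gene between them. Their values are given side by side, and no difference between neighbours was tested. ICOS, CTLA4 and CD28 follow one another, with log2 fold changes of 0.71, 0.22 and 0.44, of which that of ICOS passed. CD3E and CD3G stand on either side of CD3D, at -0.0033 and 0.73. CD5 and CD6, receptors of related structure, were at 0.24 and 0.13.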
